A study of Rattus norvegicus with 12 samples.

Results

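Collagens and laminins build the matrix around the cells of the corpus luteum (CL), and matrix metalloproteinases (Mmp genes), ADAMTS proteases and the tissue inhibitors of metalloproteinases (Timp genes) set how it is cut and renewed. The 68 genes described here are those of 14506 genes measured whose symbol is Col with a number, an a and a number, or Lama, Lamb, Lamc, Mmp, Timp or Adamts with a number. They are 25 collagens, 7 laminin chains, 21 metalloproteinases, 4 Timp genes and 11 ADAMTS proteases. No filter on low values was applied, so all 68 entered every test. Other genes of these families, such as Col4a2, Col18a1, Lama4 and Lamb1, were not analysed here.

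CL came from pregnant Wistar rats (Harlan Wistar in the study's methods) on day 16 after 4 days of AI with estradiol (AI+E2), of AI alone or of vehicle (VEH), and from untreated pregnant rats on day 12. AI is anastrozole, which blocks aromatase, the enzyme that makes estradiol (E2), and was given by mouth at 1 mg/kg per day. The AI+E2 rats received the same AI and, under the skin, 10 µg of E2 per day. The study's methods name dilute ethanol as the oral vehicle, and the sources used here do not give whether VEH and AI rats had injections without E2. VEH and day 12 rats differed both in the day of pregnancy and in vehicle treatment, which cannot be told apart. Each group had 3 rats, and the 12 RNA samples each went on an Affymetrix Rat Gene ST array of their own.

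Values are RMA values, log2 signals that were background corrected and set to like distributions across arrays by the authors, so a difference of 1 is a 2-fold difference. A log2 fold change below is the difference between group means, given with its standard error (SE), and is negative where the group named first was lower. A gene was higher or lower where its adjusted p was under 0.05 (limma over all 12 arrays, Benjamini-Hochberg over 14506 genes). Array medians lay between 6.51 and 6.56, and arrays of a group correlated across genes at 0.992 to 0.997, where genes are not independent. The 7 luteal cell markers measured had means over the 12 arrays of 10.2 (Ptgfr) to 12.8 (Cyp11a1), in the upper part of the range. Of 9 markers of granulosa cells and oocytes, Gdf9 (6.18) and Bmp15 (5.51) were below the median gene (6.87). Amh of the same list was above it, with means of 7.37 in AI and 7.03 in VEH. The group means of all 9 ran from 6.67 in VEH to 6.89 in AI+E2, near the median gene. With 3 arrays in a group precision is limited, and two-sided exact permutation of 3 against 3 arrays has a smallest p of 0.1. In whole CL, fewer cells of a type and less RNA per cell cannot be told apart.

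The fibrillar collagens form the tensile fibers of connective tissue, and collagen IV and the laminins form the basement membrane, the sheet on which endothelial and smooth muscle cells of vessels rest. The CL is among the most densely vascularized tissues, and its matrix is rebuilt as it grows in pregnancy. Metalloproteinases and ADAMTS proteases are made as inactive precursors. Timp proteins bind the active enzymes and block them, so levels of mRNA do not give levels of activity.

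Of the 68 genes, 32 had a mean RMA value above that of the median gene and 36 a mean below it. Timp3 was the brightest at 10.7, followed by Col1a1 at 9.07 and Lamc1 at 9.03, and Mmp10 was the dimmest at 4.76. Probe sets differ in their response, so this order of levels is approximate. In the dimmest 25% of all genes, with means under 5.88, there were 11 of the 68, which were Adamts19 and 10 Mmp genes, among them Mmp9 and Mmp13. Of the 32 brighter genes 20 differed in 1 or more of 6 comparisons, and of the 36 dimmer genes 9 did. In all 29 of the 68 differed in at least 1 comparison and 39 in none. Of all 14506 genes, 7.57% (AI against day 12) to 16.9% (AI against VEH) differed in a single comparison. The share of all genes that differed in at least 1 of the 6 was not counted, so these counts have no such share beside them.

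Promoters of 5 genes that differed between groups are printed, a fixed choice that was not made by size alone. Mmp12, Mmp19 and Col12a1 had larger differences than Mmp13 and are not among the 5. Adamts1 and Timp1 were highest with AI+E2, Col4a1 and Mmp13 were highest in VEH, and Timp3 was lower in both AI groups than in VEH. Each runs 5′ to 3′ over 250 bases before and 50 after the RefSeq start of the gene, in build GRCr8. Capitals mark matches to the motifs searched on both strands, which were the GC box GGGCGG, the AP-1 site TGANTCA, the core of the cyclic AMP response element TGACG, the core of the estrogen response element GGTCA and the TATA box TATAAA.
Adamts1, chr11:38427335-38427634, minus strand: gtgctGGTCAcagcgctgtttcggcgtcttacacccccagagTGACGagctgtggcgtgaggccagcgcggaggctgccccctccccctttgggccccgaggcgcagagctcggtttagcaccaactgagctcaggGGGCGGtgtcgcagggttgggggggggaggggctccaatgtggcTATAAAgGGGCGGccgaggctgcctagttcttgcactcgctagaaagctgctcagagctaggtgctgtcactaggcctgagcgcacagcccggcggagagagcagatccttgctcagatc
Timp1, chrX:3771073-3771372, minus strand: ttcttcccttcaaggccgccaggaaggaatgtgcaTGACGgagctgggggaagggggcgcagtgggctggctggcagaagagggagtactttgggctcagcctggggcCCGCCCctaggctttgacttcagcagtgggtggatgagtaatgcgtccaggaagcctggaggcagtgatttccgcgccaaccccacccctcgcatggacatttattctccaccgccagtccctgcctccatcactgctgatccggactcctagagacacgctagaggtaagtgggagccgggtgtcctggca
Col4a1, chr16:84885347-84885646, plus strand: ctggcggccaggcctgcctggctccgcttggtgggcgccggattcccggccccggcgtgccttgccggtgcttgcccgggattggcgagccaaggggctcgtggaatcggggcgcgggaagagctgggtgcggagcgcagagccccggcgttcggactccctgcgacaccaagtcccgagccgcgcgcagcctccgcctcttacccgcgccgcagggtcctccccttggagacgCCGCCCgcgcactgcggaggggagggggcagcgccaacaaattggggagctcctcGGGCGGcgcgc
Mmp13, chr8:12782579-12782878, plus strand: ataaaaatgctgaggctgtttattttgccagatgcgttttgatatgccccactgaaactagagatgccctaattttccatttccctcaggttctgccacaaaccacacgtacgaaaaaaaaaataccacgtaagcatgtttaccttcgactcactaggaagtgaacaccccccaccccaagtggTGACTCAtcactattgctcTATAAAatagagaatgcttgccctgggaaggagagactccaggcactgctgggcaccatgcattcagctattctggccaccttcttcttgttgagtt
Timp3, chr7:19459509-19459808, minus strand: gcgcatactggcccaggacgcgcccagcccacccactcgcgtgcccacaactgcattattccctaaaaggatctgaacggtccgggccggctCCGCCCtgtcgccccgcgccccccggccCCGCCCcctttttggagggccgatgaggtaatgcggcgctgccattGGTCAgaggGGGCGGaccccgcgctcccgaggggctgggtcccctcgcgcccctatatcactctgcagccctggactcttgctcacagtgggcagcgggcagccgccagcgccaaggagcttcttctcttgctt

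In the Adamts1 promoter GGTCA began at base -245 from the start, TGACG at -208, the TATA box at -70 and GC boxes at -114 and -63. In that of Mmp13 the AP-1 site TGACTCA began at -66 and the TATA box at -47. Of the 68 genes, 53 had a promoter in the RefSeq table, and the full estrogen response element, in which a pair of GGTCA cores on opposite strands are set 3 bases apart, was in 0 of them and in 0.0269% of 33465 promoters of the same length. The core GGTCA, which lies within the full element, was in 16 of the 53 (30.2%), against 40.5% of all promoters. The AP-1 site was in 8 (15.1%), against 7.33%, and the GC box in 27 (50.9%), against 33.1%. TGACG was in 9 of the 53 (17%), against 21.2% of all, and the TATA box in 15 (28.3%), against 14.2%. The 33465 promoters were not limited to coding genes or to 1 promoter per gene, as the 53 were, so the shares are over unlike sets. A match is a description of the letters and not a site shown to be bound. Of the 8 genes with an AP-1 site, 7 were Mmp genes on chromosome 8, where 9 Mmp genes lie in a row with 1 other coding gene among them. All of these 9 but Mmp27 had a TATA box match. Of these 9 neighbors Mmp12 and Mmp13 differed between groups and the other 7 did not pass the test in any comparison.

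Of the 25 collagens 7, of the 11 ADAMTS proteases 3 and of the 21 Mmp genes 5 were higher in VEH on day 16 than on day 12. The numbers lower than in VEH were 4, 6 and 4 in AI and 7, 5 and 4 in AI+E2. The Mmp count was 3 higher in VEH than on day 12 without VEH replicate 2, and 2 lower than in VEH without VEH replicate 2 in either comparison, AI replicate 3 or AI+E2 replicate 3. In VEH against day 12, 16 of the 68 genes differed, or 23.5%, against 10.1% of all genes. All 16 were higher, as were 6.91% of all genes, and 0 were lower by limma (2 at an unadjusted p under 0.05, 2 by the methods' t-test before adjustment and 0 after it), against 3.23% of all genes. By the methods' t-test 13 of the 68 were higher in VEH than on day 12 before adjustment and 0 after it. Of 183 differences of genes named by rule, called or not, 100 lost their call by that test after adjustment. Only a called difference can lose its call, so the share of calls lost was larger than 100 of 183. These losses are given below for only some of the genes. In AI against VEH 16 were lower (23.5%, against 11.0% of all genes) and 4 higher (5.88%, against 5.91%). In AI+E2 against VEH 18 were lower (26.5%, against 6.90%) and 5 higher (7.35%, against 6.11%). Between AI+E2 and AI 4 were higher (5.88%, against 8.65%) and 1 lower (1.47%, against 4.13%), so both shares were under those of all genes. The median log2 fold change of the 68 was 0.063 in VEH against day 12 (all genes -0.018), -0.014 in AI against VEH (all genes 0.013), -0.073 in AI+E2 against VEH (all genes -0.0064) and -0.069 in AI+E2 against AI (all genes -0.022). These comparisons share arrays, the VEH arrays above all, and are not independent of each other. Without VEH replicate 2, 10 genes were higher in VEH than on day 12. The 4 genes higher in AI than in VEH became 2 without VEH replicate 1 or 3 and 1 without AI replicate 1, and the 5 higher in AI+E2 than in VEH became 3 without VEH replicate 3 or AI+E2 replicate 1 or 3. The count of 1 lower in AI+E2 than in AI was 0 without AI replicate 1 or any 1 AI+E2 array and 2 without AI replicate 2 or 3 or VEH replicate 1, and 1 gene was lower in VEH than on day 12 without VEH replicate 2 or 3.

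**Figure D1:**
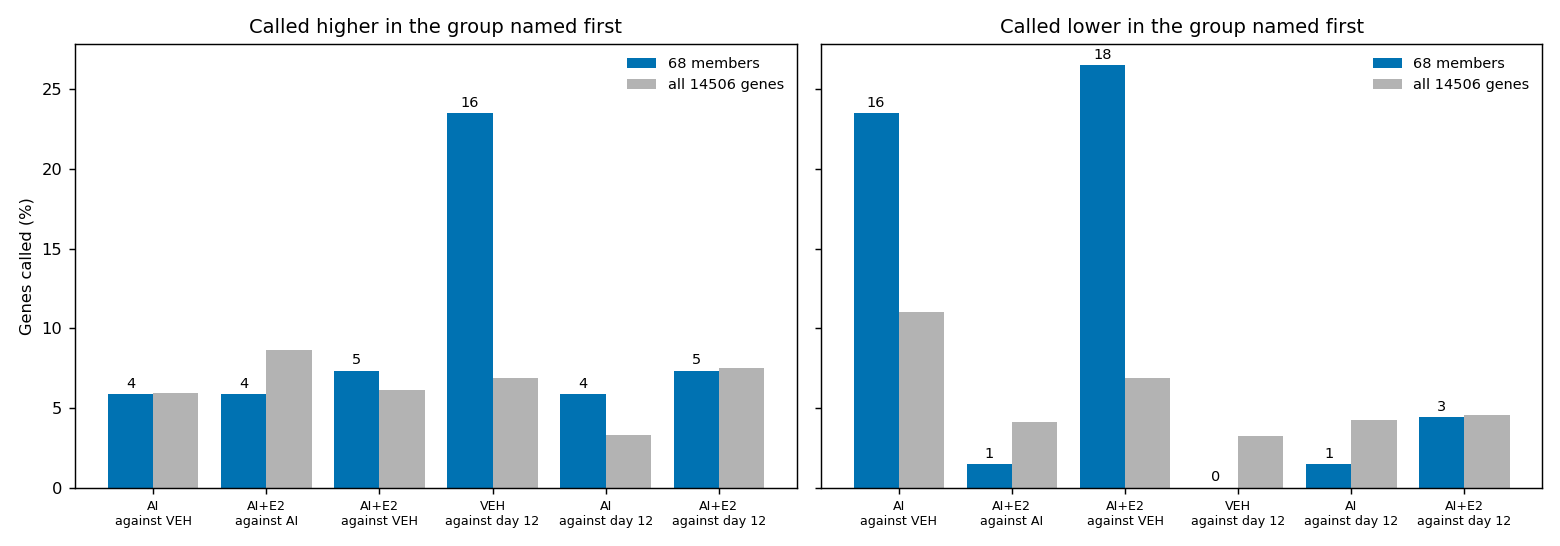
Share of the 68 genes (blue) and of all 14506 genes (grey) that were higher (left) or lower (right) in the group named first in each of 6 comparisons, in percent, with the number of the 68 genes above each blue bar. The blue bars stand well above the grey ones for higher in VEH than on day 12 (16 genes) and for lower in AI (16) and in AI+E2 (18) than in VEH.

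Among the collagens, Col4a1 and Col12a1 differed most. Col4a1 encodes a chain of collagen IV, the network collagen of all basement membranes. Its RMA values were 7.55, 7.56 and 7.5 in AI+E2, 7.71, 7.67 and 7.67 in AI, 8.25, 8.37 and 8.04 in VEH, and 7.66, 7.5 and 7.68 on day 12. All 3 VEH arrays lay above the 9 others, and the lowest of them was replicate 3. Col4a1 was 1.52-fold higher in VEH than on day 12 (log2 fold change 0.61, SE 0.077, adjusted p = 0.00011). It was lower than in VEH by -0.54 in AI and by -0.68 in AI+E2 (SE 0.077 each, adjusted p = 0.000135 and 2.15e-05). All 3 calls of Col4a1 were lost by the methods' t-test after adjustment. AI+E2 and AI differed by -0.15 (95% interval -0.31 to 0.02, adjusted p = 0.265).

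Col12a1 encodes a collagen that attaches to the surface of collagen fibers. It had 6.89, 6.86 and 6.89 in AI+E2, 6.81, 6.93 and 6.82 in AI, 7.68, 7.68 and 7.29 in VEH, and 6.67, 6.46 and 6.85 on day 12. Here too the 3 VEH arrays were above the rest, with replicate 3 the lowest of them. Its log2 fold change of 0.89 in VEH against day 12 (SE 0.10, adjusted p = 4.82e-05), or 1.86-fold, was the largest of the 68 genes in that comparison. It had -0.67 in AI+E2 against VEH (adjusted p = 0.000392) and the largest fall of the 68 genes, -0.70, in AI against VEH (adjusted p = 0.00018). The difference between AI+E2 and AI was 0.03, with an interval of -0.19 to 0.25. The 3 calls of Col12a1 were lost by the methods' t-test after adjustment.

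Col8a1, a network collagen known from vessel walls, had 6.79, 6.88 and 6.84 in AI+E2, 6.85, 6.92 and 6.88 in AI, 7.26, 7.08 and 7.41 in VEH, and 6.84, 6.87 and 6.84 on day 12. Its 3 VEH arrays again lay above all others, by 0.40 on average over day 12 (adjusted p = 0.00203), and it had -0.37 in AI and -0.41 in AI+E2 against VEH (adjusted p = 0.0019 and 0.000981). Col11a1, a minor collagen of fibers, had VEH values of 7.94, 8.04 and 7.78 and at most 7.66 on each of the other 9 arrays. It was higher in VEH than on day 12 by 0.36 (adjusted p = 0.00818) and, against VEH, lower by -0.38 in AI+E2 and by -0.30 in AI (adjusted p = 0.00383 and 0.0142). Without VEH replicate 2 the AI difference of Col11a1 was -0.24 and did not pass. All calls of Col8a1 and Col11a1 were lost by the methods' t-test after adjustment. The rise of Col11a1 over day 12 was also lost with only the compared groups in the fit.

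Col1a1, Col1a2 and Col3a1, the chains of the main fibrillar collagens, moved less and less evenly. Col1a1 had 8.90, 8.98 and 8.87 in AI+E2, 9.17, 9.09 and 9.10 in AI, 9.38, 9.58 and 9.07 in VEH, and 9.07, 8.60 and 9.05 on day 12. VEH replicate 3 lay just under the AI arrays and level with day 12 replicate 1, and day 12 replicate 2 was far below its group. Col1a1 was higher in VEH than on day 12 by 0.44 (adjusted p = 0.0348) and lower in AI+E2 than in VEH by -0.42 (adjusted p = 0.0332), while AI against VEH had -0.22 (interval -0.49 to 0.04, adjusted p = 0.267). Col1a2 had 0.33, -0.34 and -0.15 in the same comparisons, and Col3a1 had 0.35, -0.34 and -0.26, of which the first and second of each passed the test. In VEH against day 12, Col1a1 did not pass without day 12 replicate 2 (0.29) or VEH replicate 1 or 2 (0.42 and 0.32), Col3a1 without the same arrays (0.30, 0.26 and 0.32), and Col1a2 without any 1 of the 3 day 12 arrays (0.37, 0.27 and 0.35) or VEH replicate 1 or 2 (0.33 and 0.21). In AI+E2 against VEH, all 3 genes lost the call without VEH replicate 1 or 2 or AI+E2 replicate 1 or 3, and Col1a1 and Col1a2 also without AI+E2 replicate 2, at differences of -0.22 to -0.46. All 3 lost both calls by the methods' t-test after adjustment, and Col1a1 and Col1a2 also with all probe sets in the fit. Over day 12, all 3 calls were lost with only the compared groups in the fit, and those of Col1a1 and Col1a2 after a new quantile normalization. Col1a1 lost that call with a replicate block too.

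Of the 25 collagens, 7 were higher in VEH than on day 12, against 6.91% of all genes, 4 were lower in AI than in VEH, against 11.0%, and 7 were lower in AI+E2 than in VEH, against 6.90%. Their median log2 fold changes were 0.028, -0.018 and -0.092 in these comparisons (all genes -0.018, 0.013 and -0.0064). Leaving out day 12 replicate 2 or VEH replicate 1 or 2 brought the first count to 4, and leaving out VEH replicate 1 or 2 or AI+E2 replicate 1 or 3 brought the last to 4. Between AI+E2 and AI, 0 of the 25 passed by limma in either direction (0 higher and 3 lower at an unadjusted p under 0.05, 1 and 4 by the methods' t-test before adjustment, 0 and 0 after it), and 2 were lower without AI replicate 2. Their differences in that comparison lay between -0.23 and 0.07. The only call of a collagen outside these comparisons was Col14a1, a fibril-associated collagen, which had 6.16, 6.26 and 6.11 in AI+E2, against 6.34, 6.41 and 6.39 on day 12, and was lower by -0.20 (adjusted p = 0.031). This call was lost without any 1 day 12 array (-0.19 to -0.22) or AI+E2 replicate 1 or 3 (-0.19 and -0.17), and with each array centred on its median, the compared groups alone, the replicate block or the methods' t-test. The 17 collagens that passed in no comparison included Col5a1, Col5a2 and the transmembrane collagens Col13a1, Col17a1 and Col23a1, with RMA means of 6.23 to 7.55 and differences of at most 0.23.

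**Figure D2:**
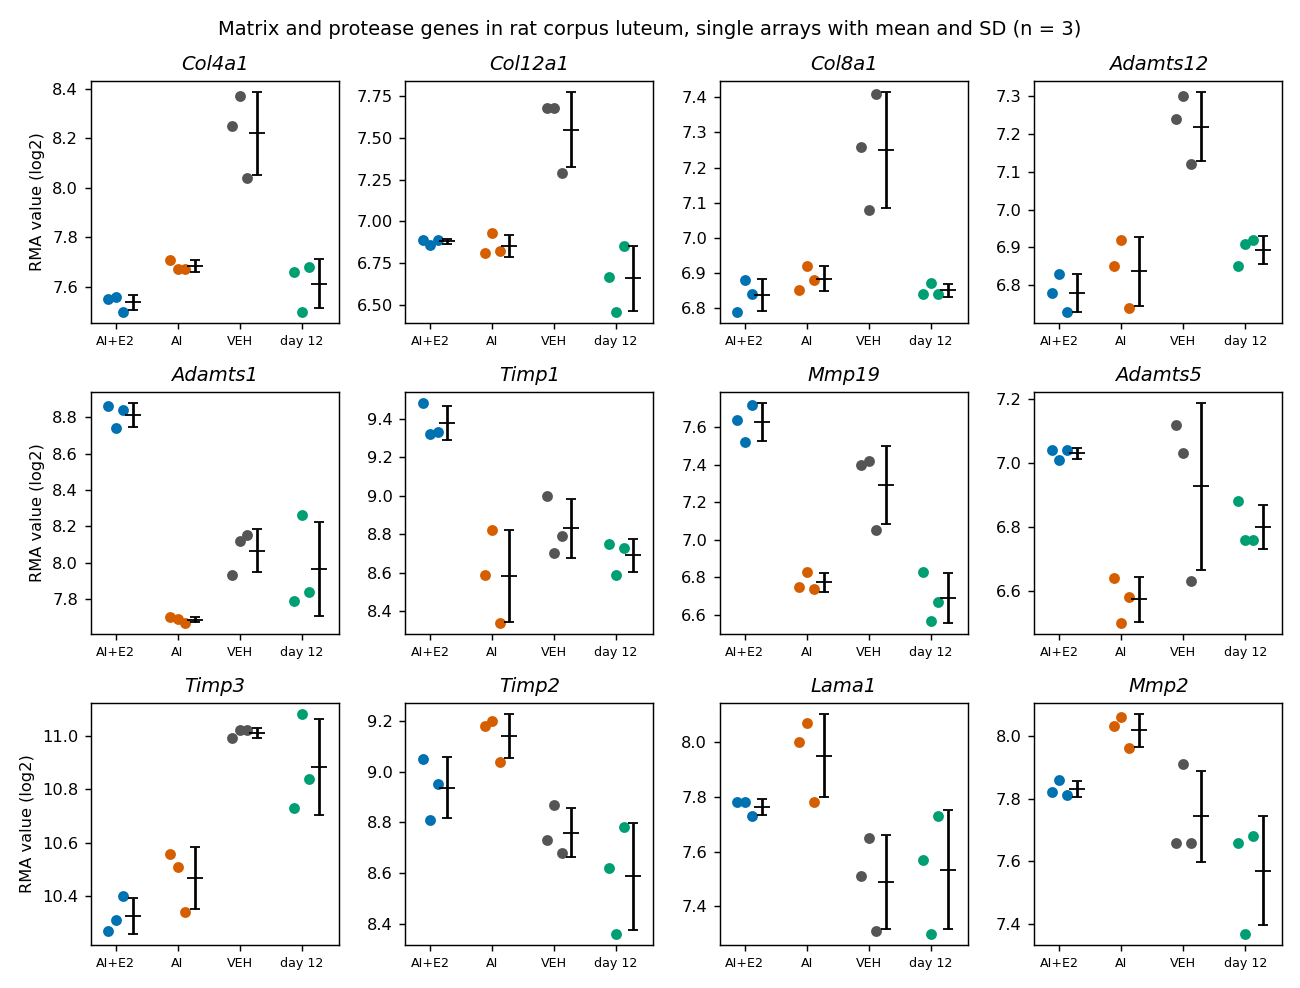
RMA values (log2) of 12 of the 68 genes in CL of AI+E2, AI and VEH treated rats on day 16 and of untreated rats on day 12, with single arrays as points and the mean and SD of 3 arrays beside them on axes that leave out 0. In the upper row the 3 VEH arrays lie above all others, in the middle row AI+E2 lies above AI, and in the lower row Timp3 is low in both AI groups while Timp2, Lama1 and Mmp2 are highest with AI.

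Laminins are trimers of an alpha, a beta and a gamma chain, and among the day 16 groups the chains that passed the test were alpha chains. Lama5, the alpha chain of the basement membrane of mature vessels and many epithelia, had 6.71, 6.72 and 6.67 in AI+E2, 6.76, 6.70 and 6.72 in AI, 7.04, 7.04 and 6.91 in VEH, and 6.83, 6.77 and 6.66 on day 12. The VEH arrays were again the 3 highest. Lama5 was lower than in VEH by -0.27 in AI and by -0.29 in AI+E2 (SE 0.061, adjusted p = 0.00563 and 0.00395) and higher in VEH than on day 12 by 0.24 (adjusted p = 0.0202). The last call was lost without day 12 replicate 3 (0.19) or VEH replicate 1 or 2 (0.22 each).

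Lama1, an alpha chain of embryonic and epithelial basement membranes, was higher in AI. It had 7.78, 7.78 and 7.73 in AI+E2, 8.0, 8.07 and 7.78 in AI, 7.51, 7.65 and 7.31 in VEH, and 7.57, 7.30 and 7.73 on day 12. All AI arrays lay above all VEH and day 12 arrays, and AI replicate 3 was level with AI+E2. The difference of 0.46 in AI against VEH (SE 0.11, adjusted p = 0.0069), or 1.38-fold, was the largest rise of the 68 genes in that comparison. AI against day 12 had 0.42 (adjusted p = 0.0251). Both calls of Lama1 were lost by the methods' t-test after adjustment. AI+E2 against AI had -0.19 (interval -0.42 to 0.04). Lamc1, the gamma chain of most laminins, had 9.28, 9.35 and 9.0 in AI and 8.70, 8.87 and 8.95 on day 12, a difference of 0.37 (adjusted p = 0.0354). The values of Lamc1 in VEH were 9.23, 9.24 and 8.95, so AI and VEH overlapped (0.07, adjusted p = 0.701). Lamb2, Lamb3, Lama3 and Lamc3 passed in no comparison, with differences of at most 0.14.

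Of the proteases of collagen, Mmp19 changed most with E2. It is a secreted metalloproteinase that cuts basement membrane proteins, and had 7.64, 7.52 and 7.72 in AI+E2, 6.75, 6.83 and 6.74 in AI, 7.40, 7.42 and 7.05 in VEH, and 6.83, 6.57 and 6.67 on day 12. The AI+E2 arrays were the 3 highest of the 12, VEH came next, and AI overlapped with day 12. Mmp19 in AI+E2 was 1.80-fold above AI (0.85, SE 0.095, adjusted p = 1.74e-05), and 1.43-fold lower in AI than in VEH (-0.52, adjusted p = 0.00121). In VEH it was above day 12 by 0.60 (adjusted p = 0.000785), and AI+E2 was above VEH by 0.34 (adjusted p = 0.0293), a call lost without VEH replicate 3 (0.21) or AI+E2 replicate 1 or 3 (0.33 and 0.29).

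Mmp12, the macrophage elastase, and Mmp13, a collagenase, were neighbors in the genome that were both highest in VEH. Mmp12 had 5.80, 5.79 and 5.85 in AI+E2, 6.34, 6.23 and 6.0 in AI, 6.33, 6.58 and 6.80 in VEH, and 6.13, 5.88 and 6.06 on day 12. AI and VEH overlapped at their edge. In AI+E2 against VEH the difference of Mmp12, -0.76 (SE 0.11, adjusted p = 0.000206) or 1.69-fold, was the largest fall of the 68 genes, and VEH was above day 12 by 0.55 (adjusted p = 0.00415). AI was lower than VEH by -0.38 (adjusted p = 0.024), a call lost without VEH replicate 2 or 3 or AI replicate 3 (-0.38, -0.27 and -0.29). Mmp12 was also the only gene of the 68 that was lower with AI+E2 than with AI, by -0.38 (adjusted p = 0.0329), and this call was lost without AI replicate 1 or 2 (-0.30 and -0.35) or any 1 AI+E2 array (-0.37 to -0.39).

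Mmp13 had 4.85, 4.84 and 4.98 in AI+E2, 4.76, 4.68 and 4.75 in AI, 5.14, 5.24 and 5.38 in VEH, and 4.77, 4.81 and 4.76 on day 12. It is in the dimmest 25% of all genes, and how far so low a signal lies above the background of the array is not given by these values. The 3 VEH arrays were still clear of all others. Mmp13 was lower by -0.52 in AI (SE 0.066, adjusted p = 3.94e-05) and by -0.37 in AI+E2 (adjusted p = 0.00134) than in VEH, and higher by 0.47 in VEH than on day 12 (adjusted p = 0.000251). The collagenases Mmp1 and Mmp8 did not pass in any comparison. Nor did Mmp9, a gelatinase known from tissue remodeling, which had RMA values of 5.51 to 5.66 on the 12 arrays.

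Mmp2, the other gelatinase, was highest in AI, with 7.82, 7.86 and 7.81 in AI+E2, 8.03, 8.06 and 7.96 in AI, 7.66, 7.91 and 7.66 in VEH, and 7.66, 7.37 and 7.68 on day 12. AI lay above the other 9 arrays, and VEH replicate 2 came closest to it. Mmp2 was higher in AI than on day 12 by 0.45 (SE 0.085, adjusted p = 0.00369) and than in VEH by 0.28 (adjusted p = 0.0352). The call against VEH was lost without VEH replicate 1 or 3 (0.24 and 0.23) or AI replicate 1 or 2 (0.27 and 0.26), and also with all probe sets, the replicate block or the methods' t-test (0.28 each) or with each array centred on its median (0.25). Mmp14, the membrane protease that activates the Mmp2 precursor, had 8.02 ± 0.059 in AI+E2, 7.85 ± 0.16 in AI, 8.12 ± 0.15 in VEH and 7.82 ± 0.20 on day 12 (SD, n = 3 each) and passed in no comparison. Without VEH replicate 3 Mmp14 did pass, at -0.35 in AI against VEH and at 0.38 in VEH against day 12, and without day 12 replicate 3 the difference of VEH from day 12 was also 0.38 and passed.

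Other membrane-bound proteases went both ways. Mmp15 had 7.92, 7.78 and 7.44 in VEH, against 7.15, 7.34 and 7.43 on day 12, and was higher by 0.41 (adjusted p = 0.0211). It was lower than in VEH by -0.35 in AI and by -0.42 in AI+E2 (adjusted p = 0.0313 and 0.0135), with VEH replicate 3 near the level of the other groups. Leaving out VEH replicate 1 or 2 ended all 3 calls of Mmp15 (0.30 and 0.37 over day 12, -0.25 and -0.31 in AI, -0.32 and -0.38 in AI+E2). Leaving out day 12 replicate 1 (0.32), AI replicate 1 or 3 (-0.35 and -0.31) or AI+E2 replicate 3 (-0.38) each ended the call of its comparison. Mmp23 was higher in VEH than on day 12 by 0.31 (adjusted p = 0.0429) and lower in AI+E2 than in VEH by -0.29 (adjusted p = 0.0452), and its rise was lost without day 12 replicate 2 or 3 (0.20 and 0.34) or VEH replicate 1 or 2 (0.23 and 0.31). Its fall was lost without VEH replicate 1 or 2 or any 1 AI+E2 array (-0.22 to -0.33).

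Mmp16 was lowest in VEH, with 5.53, 5.70 and 5.56 in AI+E2, 5.61, 5.52 and 5.54 in AI, 5.37, 5.41 and 5.24 in VEH, and 5.51, 5.52 and 5.49 on day 12. The VEH arrays lay below the other 9, at a signal in the dimmest 25% of genes. It was higher by 0.26 in AI+E2 (adjusted p = 0.0122) and by 0.21 in AI (adjusted p = 0.0304) than in VEH. The first call was lost without VEH replicate 3 or AI+E2 replicate 2 (0.21 each), and the second without VEH replicate 1 or 3 (0.23 and 0.16) or AI replicate 1 or 3 (0.19 and 0.22). Mmp11, a stromelysin, had 7.56, 7.49 and 7.57 in AI+E2, against 7.36, 7.23 and 7.35 in VEH, a difference of 0.23 (adjusted p = 0.019) that did not pass without VEH replicate 2 (0.18) or AI+E2 replicate 1 or 3 (0.21 each). Of the 21 Mmp genes, 13 passed in no comparison, with differences of at most 0.30 (Mmp8 and Mmp14).

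Of the 4 inhibitors all but Timp4 differed between groups, each in its own way. Timp1, a secreted inhibitor that is induced in many tissues under repair, had 9.48, 9.32 and 9.33 in AI+E2, 8.59, 8.82 and 8.34 in AI, 9.0, 8.70 and 8.79 in VEH, and 8.75, 8.59 and 8.73 on day 12. The AI+E2 arrays were above the 9 others, whose groups overlapped. Timp1 in AI+E2 was 1.73-fold above AI (0.79, SE 0.11, adjusted p = 9.73e-05) and 1.46-fold above VEH (0.54, adjusted p = 0.00245), and AI+E2 against day 12 had 0.68 (adjusted p = 0.000463). AI against VEH had -0.24 (interval -0.47 to -0.02, adjusted p = 0.141), which passed at -0.36 without AI replicate 2.

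Timp3, an inhibitor that stays bound to the matrix and also blocks ADAMTS proteases, was lower in both AI groups. It had 10.27, 10.31 and 10.40 in AI+E2, 10.56, 10.51 and 10.34 in AI, 10.99, 11.02 and 11.02 in VEH, and 10.73, 11.08 and 10.84 on day 12. The 6 arrays with AI lay below the 6 without it. Timp3 was 1.61-fold lower in AI+E2 (-0.68, SE 0.083, adjusted p = 4.3e-05) and 1.46-fold lower in AI (-0.54, adjusted p = 0.000231) than in VEH. Against day 12 the differences were -0.56 in AI+E2 and -0.42 in AI (adjusted p = 0.000334 and 0.00517). AI+E2 and AI differed by -0.14 (interval -0.32 to 0.04), and VEH and day 12 by 0.13 (interval -0.05 to 0.30). The calls of Timp3 against VEH held under all 16 alternatives run for single genes.

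Timp2, which takes part in the activation of the Mmp2 precursor, had 9.05, 8.81 and 8.95 in AI+E2, 9.18, 9.20 and 9.04 in AI, 8.73, 8.87 and 8.68 in VEH, and 8.62, 8.36 and 8.78 on day 12. All AI arrays were above all VEH and day 12 arrays. Timp2 was higher in AI than in VEH by 0.38 (SE 0.096, adjusted p = 0.012), which did not pass without AI replicate 1 (0.36). Against day 12 it was higher by 0.56 in AI and by 0.35 in AI+E2 (adjusted p = 0.00194 and 0.027). Timp4 had 6.18 to 6.54 on the 12 arrays and passed in no comparison.

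ADAMTS proteases are secreted enzymes, of which Adamts1, Adamts4, Adamts5 and Adamts9 cut large proteoglycans such as versican and aggrecan. Adamts1, which is induced in follicles at ovulation, had the largest change of the 68 genes. It had 8.86, 8.74 and 8.84 in AI+E2, 7.70, 7.69 and 7.67 in AI, 7.93, 8.12 and 8.15 in VEH, and 7.79, 8.26 and 7.84 on day 12. AI+E2 lay above and AI below all other arrays. Adamts1 in AI+E2 was 2.18-fold above AI (1.13, SE 0.10, adjusted p = 1.79e-06), the only difference of the 68 genes past 2-fold, and was above VEH by 0.75 (adjusted p = 0.000112). AI was lower than VEH by -0.38 (adjusted p = 0.016), a call lost without VEH replicate 2 or 3 (-0.35 and -0.34).

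Adamts5 lies next to Adamts1 on chromosome 11 with 0 coding genes between them. It had 7.04, 7.01 and 7.04 in AI+E2, 6.64, 6.5 and 6.58 in AI, 7.12, 7.03 and 6.63 in VEH, and 6.88, 6.76 and 6.76 on day 12. AI+E2 and AI were clearly apart, and VEH replicate 3 lay with AI. Adamts5 was higher in AI+E2 than in AI by 0.46 (SE 0.098, adjusted p = 0.00508). It was lower in AI than in VEH by -0.35 (adjusted p = 0.0214), and this call was lost without VEH replicate 1 or 2 (-0.26 and -0.30) or AI replicate 2 or 3 (-0.31 and -0.36). Without VEH replicate 3, Adamts5 was higher in VEH than on day 12 (0.28), where all arrays gave 0.13 (adjusted p = 0.477).

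Adamts4 had 6.13, 6.02 and 6.11 in AI+E2, 6.21, 6.36 and 6.16 in AI, 6.44, 6.58 and 6.79 in VEH, and 6.25, 6.22 and 6.07 on day 12, and thus belonged with the genes highest in VEH. It was lower by -0.52 in AI+E2 and by -0.36 in AI (adjusted p = 0.00062 and 0.00682) than in VEH, and higher by 0.43 in VEH than on day 12 (adjusted p = 0.00405). These calls of Adamts4 were lost by the methods' t-test after adjustment. Adamts9 was lower than in VEH by -0.33 in AI+E2 (adjusted p = 0.0033) and by -0.25 in AI (adjusted p = 0.0169), the second of which did not pass without VEH replicate 3 (-0.19) or AI replicate 1 or 3 (-0.24 and -0.22). Adamts9 was not higher in VEH than on day 12 by the test (0.11, interval -0.03 to 0.25).

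Adamts2, the peptidase that trims the ends of procollagens I and III, had 8.0, 8.01 and 7.84 in AI+E2, 7.97, 7.88 and 7.85 in AI, 8.31, 8.30 and 8.18 in VEH, and 7.91, 7.84 and 7.96 on day 12. The VEH arrays were above all others, by 0.36 over day 12 (adjusted p = 0.00224), and AI+E2 and AI were lower than VEH by -0.32 and -0.36 (adjusted p = 0.004 and 0.000982). Adamts12 had 6.78, 6.83 and 6.73 in AI+E2, 6.85, 6.92 and 6.74 in AI, 7.24, 7.30 and 7.12 in VEH, and 6.85, 6.91 and 6.92 on day 12. It was lower by -0.44 in AI+E2 and by -0.38 in AI than in VEH (adjusted p = 0.000238 and 0.000536) and higher by 0.33 in VEH than on day 12 (adjusted p = 0.00397). By the methods' t-test after adjustment Adamts2 lost all of its calls, and Adamts12 kept only that of AI+E2 against VEH. Adamts7 passed only in AI+E2 against VEH (-0.23, adjusted p = 0.0259), a call lost without VEH replicate 1 or 2 or any 1 AI+E2 array (-0.16 to -0.23). The other procollagen peptidases, Adamts3 and Adamts14, and Adamts15 and Adamts19 passed in no comparison.

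**Figure D3:**
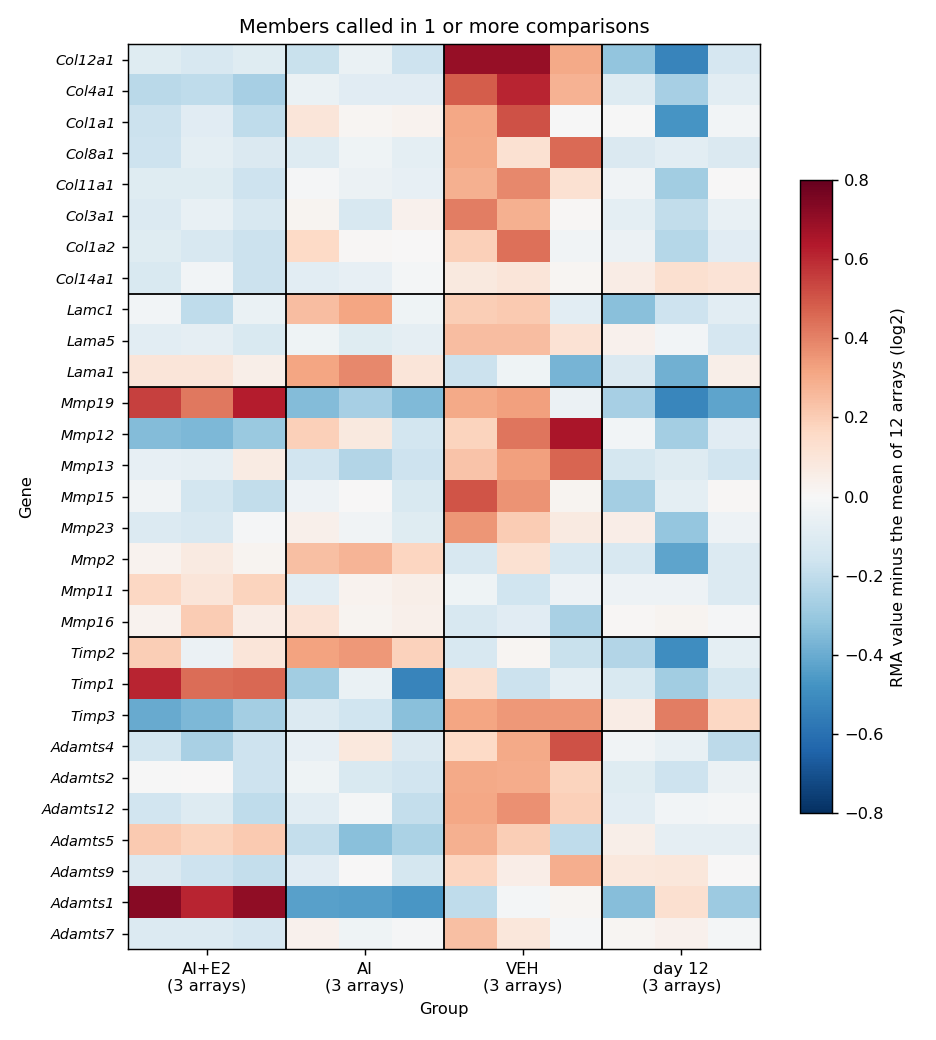
RMA value of each array minus the mean of the gene over the 12 arrays (log2, color scale of -0.8 to 0.8) for the 29 genes that differed in 1 or more of 6 comparisons, with 3 arrays per group and genes ordered by family. The VEH columns are red for most collagens and ADAMTS proteases, with the third paler for Col12a1 and Col4a1, and the AI+E2 columns are red for Adamts1, Mmp19 and Timp1.

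Against day 12, fewer of the 68 genes passed in the AI and AI+E2 groups than in VEH, a difference that was not tested. In AI against day 12, 4 were higher (5.88%, against 3.30% of all genes), which were Timp2, Mmp2, Lama1 and Lamc1, and Timp3 alone was lower (1.47%, against 4.27%). In AI+E2 against day 12, 5 were higher (7.35%, against 7.52%) and 3 lower (4.41%, against 4.58%). The 5 were Mmp19 (0.93, adjusted p = 1.09e-05), Adamts1 (0.85), Timp1, Timp2 and Mmp11, and the 3 were Timp3, Adamts9 (-0.22, adjusted p = 0.0437) and Col14a1. Col4a1, Col12a1, Col8a1 and Col11a1 had differences of -0.08, 0.22, -0.02 and -0.02 in AI+E2 and of 0.07, 0.19, 0.03 and 0.06 in AI against day 12, none past the test. Lama1 and Lamc1 lost their calls in AI without day 12 replicate 1 or 2 or AI replicate 1 or 2 (0.30 to 0.44), so that the count of 4 was 2, and without VEH replicate 3 the count of 1 was 2. Mmp11 and Timp2 lost theirs in AI+E2 without day 12 replicate 1 or AI+E2 replicate 1 or 3 (0.20 to 0.37), which made the count of 5 a count of 3. Timp2 was also lost without day 12 replicate 2 (0.24) and Mmp11 without day 12 replicate 3 (0.19). Adamts9 was lost without day 12 replicate 1 or 2 or any 1 AI+E2 array (-0.20 to -0.24), and the count of 3 was 1 without day 12 replicate 1 or 2 or AI+E2 replicate 1 or 3.

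Enzymes that fold, crosslink and trim collagen were measured in a list of 23 genes. In AI against VEH 14 were lower (11.0% of all genes) and 1 higher (5.91%), with a median log2 fold change of -0.40 (all genes 0.013), and 12 were higher in VEH than on day 12 (6.91% of all genes), with a median of 0.36 (all genes -0.018). Unlike the 25 collagens, 7 of these enzymes were higher with AI+E2 than with AI and 1 was lower (8.65% and 4.13% of all genes), with a median of 0.17 (all genes -0.022). The difference between the lists was not tested. Fkbp10, a chaperone of procollagen, had 9.20, 9.09 and 9.09 in AI+E2, 8.28, 8.40 and 8.34 in AI, 9.58, 9.38 and 9.27 in VEH, and 8.57, 8.53 and 8.65 on day 12. It was lower in AI than in VEH by -1.07 (adjusted p = 7.64e-08) and higher with AI+E2 than with AI by 0.78 (adjusted p = 3.25e-06). Pcolce, which enhances the trimming of procollagens, had 9.68, 9.58 and 9.50 in AI+E2, 8.64, 8.62 and 8.59 in AI, 9.37, 9.27 and 9.22 in VEH, and 8.30, 8.21 and 8.40 on day 12, a difference of 0.97 between AI+E2 and AI. P4hb, a subunit of prolyl hydroxylase, and Lox, which crosslinks collagen, had 0.64 and 0.36 in that comparison (adjusted p = 1.94e-06 and 0.00742). Serpinh1, the collagen chaperone, was lower by -0.52 in AI+E2 and by -0.59 in AI than in VEH (adjusted p = 0.000413 and 9.16e-05), and AI+E2 and AI differed by 0.07 (interval -0.11 to 0.24). Loxl2 followed the same course as Serpinh1, with -0.64 and -0.63. The list was tested as single genes only, and its 5 calls of lower in AI+E2 than in VEH were 9 without VEH replicate 3, 2 without VEH replicate 1 and 3 without VEH replicate 2 or any 1 AI+E2 array.

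Of 22 receptors of collagen and laminin, 11 were lower and 1 higher in AI than in VEH (11.0% and 5.91% of all genes), with a median log2 fold change of -0.16. In AI+E2, 7 were lower and 3 higher than in VEH (6.90% and 6.11% of all genes, median -0.12), and 5 were higher and 1 lower than in AI (8.65% and 4.13%, median 0.071). In VEH 7 were higher than on day 12 (6.91%, median 0.14). Ddr2, a kinase receptor of fibrillar collagen, had 8.25, 8.08 and 8.33 in AI+E2, 7.90, 8.04 and 7.84 in AI, 9.30, 9.66 and 9.32 in VEH, and 8.17, 8.15 and 8.31 on day 12. The VEH arrays were the 3 highest, well clear of the other 9. Ddr2 was lower by -1.21 in AI+E2 and by -1.50 in AI than in VEH (adjusted p = 7.12e-07 and 3.09e-08), and higher by 1.22 in VEH than on day 12. Itga6, the alpha chain of a laminin receptor, had -0.60 in AI+E2 and -1.35 in AI against VEH (adjusted p = 0.000296 and 4.09e-08), and 0.76 between AI+E2 and AI. Itga1, the alpha chain of a collagen receptor, was lower in AI than in VEH by -0.55 and higher in VEH than on day 12 by 0.68. Sdc2, a cell surface proteoglycan, had 10.75 ± 0.037 in AI+E2, 9.51 ± 0.085 in AI, 10.55 ± 0.11 in VEH and 9.85 ± 0.11 on day 12 (SD, n = 3 each), and its AI+E2 level was 2.36-fold that of AI.

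Of 8 basement membrane partners of laminin and collagen IV, 3 were lower in AI than in VEH (11.0% of all genes) and 4 higher in VEH than on day 12 (6.91%; 2 without VEH replicate 1). Nid2, which links laminin to collagen IV, had 7.51, 7.55 and 7.55 in AI+E2, 7.53, 7.49 and 7.63 in AI, 7.98, 7.76 and 7.93 in VEH, and 7.44, 7.45 and 7.54 on day 12. Like Col4a1 it was lower by -0.35 in AI+E2 and by -0.34 in AI than in VEH and higher by 0.41 in VEH than on day 12 (adjusted p = 0.00179, 0.00174 and 0.000756). Smoc2, a matrix protein that binds calcium, had -1.32 in AI against VEH and 0.73 between AI+E2 and AI. Of 25 other matrix glycoproteins and proteoglycans, 7 were lower and 2 higher in AI than in VEH (11.0% and 5.91% of all genes), with a median of -0.079. With AI+E2, 5 were higher and 3 lower than with VEH (6.11% and 6.90% of all genes; 3 higher without AI+E2 replicate 1). The 7 lower in AI were 3 without VEH replicate 2 or AI replicate 1, and 4 without AI replicate 3. Sparc, a glycoprotein that binds collagen, was lower in AI than in VEH by -0.47 (adjusted p = 0.000409), whereas the proteoglycan Dcn, which also binds collagen and is on the list of fibroblast markers below, was higher by 0.63 in AI+E2 and by 0.50 in AI than in VEH (adjusted p = 0.000592 and 0.00289).

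Of 23 other matrix proteases and inhibitors, 9 were lower in AI than in VEH (11.0% of all genes), 8 were higher in AI+E2 than in AI (8.65%) and 7 were higher in VEH than on day 12 (6.91%; 3 to 4 without day 12 replicate 1 or 2 or VEH replicate 1). Htra1, a serine protease of the matrix, had 9.27, 9.17 and 9.37 in AI+E2, 8.60, 8.93 and 8.65 in AI, 10.45, 10.48 and 10.17 in VEH, and 9.23, 9.24 and 9.42 on day 12. It was 3.12-fold lower in AI than in VEH (-1.64, adjusted p = 1.54e-08) and in AI+E2 was 1.46-fold above AI (0.54, adjusted p = 0.00145). Plat, the tissue plasminogen activator, had -0.57 in AI+E2 and -0.62 in AI against VEH, and AI+E2 differed from AI by 0.05 (interval -0.08 to 0.17). Serpine2, an inhibitor of serine proteases, had 9.01, 8.81 and 8.96 in AI+E2, against 7.81, 7.89 and 8.07 in AI, and was 2-fold higher (adjusted p = 2.99e-05). The AI+E2 arrays of Serpine2 were also above VEH (8.46, 8.33 and 8.14) and day 12 (7.92, 7.53 and 8.04), as those of Timp1, Adamts1 and Mmp19 were.

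Markers of vessel cells moved with the genes that were highest in VEH. Of 11 endothelial markers measured, all but 1 were lower in AI than in VEH (11.0% of all genes, median log2 fold change -0.50). All but 1 were higher in VEH than on day 12 (6.91% of all genes, median 0.39). In AI+E2 against VEH 7 of the 11 were lower (6.90% of all genes, median -0.40). Between AI+E2 and AI 1 of the 11 was higher and 0 were lower (8.65% and 4.13% of all genes). The mean RMA value of the list lay between 8.57 and 8.65 on the AI+E2 arrays, 8.42 and 8.66 in AI, 8.99 and 9.02 in VEH, and 8.52 and 8.68 on day 12. Of 11 smooth muscle and pericyte markers, 5 were lower in AI (11.0% of all genes) and 5 lower in AI+E2 (6.90%) than in VEH. In VEH 8 were higher than on day 12 (6.91% of all genes). Between AI+E2 and AI 0 passed by limma in either direction (0 also at an unadjusted p under 0.05). The means of this list were 8.62 to 8.64 in AI+E2, 8.52 to 8.76 in AI, 8.81 to 9.16 in VEH and 8.46 to 8.51 on day 12. The fall in AI took in 8 of these 11 without VEH replicate 3. The part of the vessel cells in the differences of Col4a1 and the other genes was not tested.

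For the counts that follow, 6.91% of all genes were higher and 3.23% lower in VEH than on day 12. In AI against VEH 5.91% of all genes were higher and 11.0% lower, and in AI+E2 against VEH 6.11% and 6.90%. The lists are small, and their counts were not tested against these shares. Of 12 fibroblast markers 3 were higher and 1 lower in VEH than on day 12 (0 lower without VEH replicate 1 or 3). Their median log2 fold change in that comparison was 0.14 (all genes -0.018). In AI 3 of the 12 were lower and 2 higher than in VEH. With AI+E2 4 were higher and 2 lower than with VEH (2 higher without AI+E2 replicate 1). Their mean was 8.20 to 8.25 in AI+E2, 8.03 to 8.26 in AI, 8.12 to 8.27 in VEH and 7.99 to 8.04 on day 12, so the VEH and AI+E2 arrays lay above the day 12 arrays, and AI overlapped with them. Of 12 macrophage markers 4 were higher in AI than in VEH (2 without AI replicate 3) and 4 in AI+E2 than in VEH, while Mmp12, named for macrophages, was lower in both. The mean of the macrophage list was 7.98 to 8.01 in AI+E2, 7.94 to 8.03 in AI, 7.77 to 7.80 in VEH and 7.77 to 7.79 on day 12. The mean of the 7 luteal markers was 11.84 to 11.89 in AI+E2, 11.78 to 11.82 in AI, 11.56 to 11.59 in VEH and 11.65 to 11.71 on day 12, and 4 of them were higher in AI than in VEH (2 without AI replicate 1) and 1 lower. Of 9 markers of granulosa cells and oocytes, 2 were higher in AI+E2 than in VEH and 2 were lower in VEH than on day 12. In AI 1 of them, Amh, was higher than in VEH (0.34, adjusted p = 0.00987 by limma). The means of these 9 were 6.87 to 6.90 in AI+E2, 6.75 to 6.97 in AI, 6.58 to 6.77 in VEH and 6.69 to 6.88 on day 12. Of 5 mesothelial and surface epithelial markers 1 was higher in AI+E2 than in VEH, with means of 6.42 to 6.56 on all 12 arrays. RMA values have no 0, so absence of a marker cannot be read from them, and the part of these cells in the results was not tested.

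**Figure D4:**
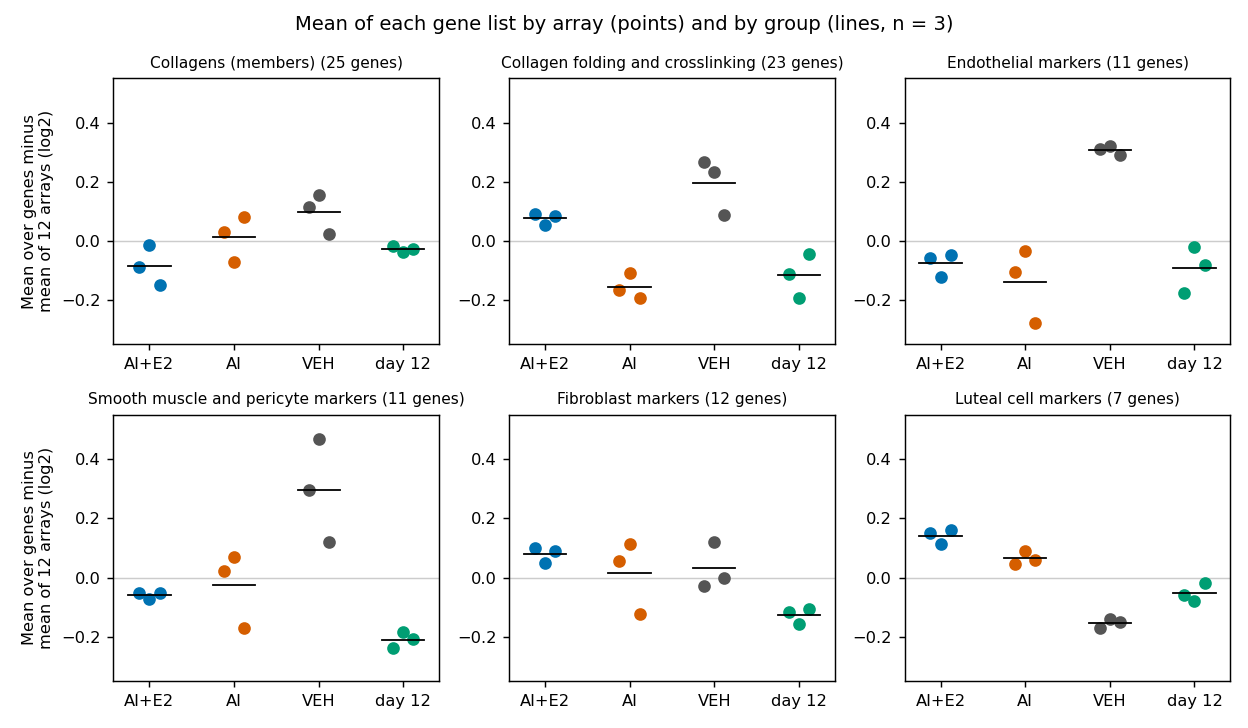
Mean RMA value of the genes of a list on each array minus its mean over the 12 arrays (log2, points) with the mean of 3 arrays per group (lines) for the 25 collagens, 23 enzymes of collagen folding and crosslinking and 4 lists of cell markers. The 3 VEH arrays are the highest for endothelial markers and for smooth muscle and pericyte markers, and VEH replicate 3 is the lowest of the 3 in the panels of collagens, enzymes and smooth muscle.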

How the data were processed

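Affymetrix Rat Gene ST arrays held CL RNA of 12 rats, 1 rat per array and 3 per group. The authors deposited log2 values after RMA in R 2.12.2, as the paper and the submitters' processing notes state, for 29214 probe sets. RMA can compress large differences and assumes like distributions on all arrays. Groups came from the sample labels, which give no batch and do not say which arrays were normalized together. There were 0 missing values and 0 identical pairs of arrays.

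The platform annotation gave 1 gene symbol to 15310 probe sets, several to 323 and none to 13581, and only the first were used. Of 14506 genes, 527 had several probe sets, of which the one with the highest mean was kept, and 14480 gene identifiers were found in RefSeq with the same symbol. The test was that of limma 3.58.1 (R 4.3.3) with a mean per group, by lmFit and then eBayes, over 12 arrays with 8 residual degrees of freedom, with Benjamini-Hochberg adjustment over all genes and a threshold of 0.05. The fit was tested on simulated data. Promoters and figures used Python 3.11.15, pandas 2.3.3, numpy 2.4.6 and matplotlib 3.10.9. Genes were named by rule, as the 15 largest rises and falls of the 68 in a comparison past the threshold, a fixed set of members, and up to 4 genes of a list by smallest p, and other genes named were chosen after their values were seen. The members and lists were chosen with earlier results of these data known. Alternatives were the probe set choice, filters on dim genes, scaling, the prior, a fit of only the groups compared, a replicate block, the methods' t-test, fold thresholds and leaving out each array.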

Additional observations from a re-analysis of the deposited data

How the results depend on the processing

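Counts of the 68 genes depended on the size asked of a difference and on the test. At a fold of at least 1.5, AI+E2 against AI had 3 higher and 0 lower, AI+E2 against VEH 1 and 4, AI against VEH 0 and 1, VEH against day 12 3 and 0, AI+E2 against day 12 3 and 0, and AI against day 12 0 and 0. At a fold of at least 2 only the 1 higher between AI+E2 and AI was left, and all other counts were 0. By the methods' t-test with Benjamini-Hochberg adjustment the counts higher and lower were 3 and 1 in AI+E2 against AI, 1 and 2 in AI+E2 against VEH, 0 and 2 in AI against VEH, 0 and 0 in VEH against day 12, 2 and 0 in AI+E2 against day 12 and 0 and 0 in AI against day 12. Before adjustment it gave 8 higher and 10 lower in AI+E2 against AI, 9 lower in AI+E2 and 6 lower in AI against day 12, and 2 lower in VEH against day 12. Mmp12 was the 1 gene lower in AI+E2 than in AI. That count was 0 with all probe sets, with arrays centred on their median and with the replicate block. It was also 0 without the dimmest 50% of genes, a filter that takes out Mmp12 itself. The count was 2 after a new quantile normalization and 4 with the compared groups alone. Mmp12 did not pass after that normalization or by the methods' t-test after adjustment, so the genes counted there were others. The fit of the compared groups alone also gave 9 higher in VEH and 2 higher in AI than on day 12, and all probe sets gave 2 in the last. Genes lower in AI+E2 than on day 12 were 1, in place of 3, with centring or the block, and genes lower in VEH than on day 12 were 1, in place of 0, with mean probe sets or a trended, robust prior. Replicate numbers showed no sign of pairing the samples. The mean correlation of deviations was -0.064 over 18 same-numbered pairs (-0.486 to 0.339) and 0.032 over 36 others (-0.389 to 0.455). Closest to their own number in all groups were 0 arrays. With 3 arrays in a group these values cannot exclude a weak pairing. The replicate block gave 18 lower in AI+E2 against VEH and 16 lower in AI against VEH, as without it. Leaving out 1 array at a time, the counts higher and lower ranged over 4 to 4 and 0 to 2 in AI+E2 against AI, 3 to 5 and 12 to 18 in AI+E2 against VEH, 1 to 4 and 11 to 19 in AI against VEH, 10 to 19 and 0 to 1 in VEH against day 12, 3 to 6 and 1 to 4 in AI+E2 against day 12, and 2 to 4 and 1 to 2 in AI against day 12. Adamts5 in AI+E2 against VEH, at 0.11 and not past the test, lay between -0.04 (without VEH replicate 3) and 0.20 (without VEH replicate 1). The causes of these changes were not tested. Dim genes such as Mmp13 and Mmp16 limit what the arrays show.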
